A study of Mus musculus with 12 samples.

Results

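S100 genes encode small proteins that bind calcium, and 8 of them had enough reads to be followed in cultured mouse bone marrow progenitors: S100a1, S100a4, S100a6, S100a8, S100a9, S100a10, S100a11 and S100a13. They were taken by symbol from a count file of 55376 genes, and all 8 were among the 11994 genes that passed a filter on low counts. The file lists 9 further S100 genes (S100a2, S100a3, S100a5, S100a7a, S100a14, S100a16, S100b, S100g and S100z), each with between 0 and 16 counts in all libraries together, and none of them was tested. RNA came from progenitors labelled c-Kit+/Sca-1+/Lin- (c-Kit and Sca-1 on the surface, no lineage markers) and then grown in medium with stem cell factor (SCF, 100 ng/ml) and the interleukins IL-6 and IL-3 (both 20 ng/ml). There were 4 groups of 3 libraries. The first carried the empty retroviral vector MSCV and the control shRNA sh#ctrl. The second carried NUP98-NSD1, a leukaemia fusion of a nuclear pore protein with a histone methyltransferase, and the same control shRNA. The other groups carried NUP98-NSD1 with shNizp1#1 or shNizp1#2, pLKO.1-puro shRNAs against the zinc finger protein Nizp1. Every group thus held a retroviral and, by its label, an shRNA vector, and expression of the fusion was driven by the retroviral construct. Geneticin selection was applied to the transduced cells. Neither strain, age nor the number of donor animals is stated in the labels.

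S100 proteins are dimers built from EF-hand calcium-binding loops, and calcium lets them grip target proteins inside the cell. S100a8 and S100a9 pair to form calprotectin, a major cytosolic protein of neutrophils and monocytes that is released as an alarm signal to the receptors Tlr4 and Ager (RAGE). S100a10 and S100a11 bind annexins at membranes, S100a4 binds non-muscle myosin, S100a6 binds the ubiquitin ligase adaptor Cacybp, S100a1 is best known from heart muscle, and S100a13 takes part in the unconventional export of Fgf1 and Il1a. In the myeloid lineage calprotectin RNA climbs as granulocytes mature, whereas several other family members are expressed across many cell types.

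Libraries held between 3586538 and 6842589 counts, so 3 counts corresponded to between 0.417 and 0.837 CPM (counts per 1000000 counts, on TMM-scaled totals of the tested genes). Libraries with the same replicate number resembled each other: deviations from the group means correlated in all 18 same-numbered pairs (r from 0.22 to 0.88), against a median of -0.2 for other pairs. They are therefore called experiments 1, 2 and 3 here, an inference from the data and from the series text, which speaks of 3 independent experiments. The Nizp1 gene, listed as Zkscan17, had 63.1 ± 5.69 CPM with the empty vector and 57.9 ± 7.42 CPM with the fusion, against 30.5 ± 4.37 CPM with shNizp1#1 and 24.5 ± 6.08 CPM with shNizp1#2 (mean ± SD, n = 3). The genes behind this label were present, with Kit between 1930 and 3100 CPM and Ly6a (Sca-1) between 23.8 and 277 CPM, while 10 mast cell genes, among them Kit and Gata2, which progenitors also express, summed to between 39500 and 64100 CPM in every library. Stromal genes summed to at most 6.71 CPM and lymphocyte genes to at most 5.78 CPM.

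All 8 genes lie on chromosome 3 (build mm10, coordinates as in the count file). In a stretch of 185 kb, S100a1 (chr3:90511034-90514392, minus strand) is followed by S100a13 (chr3:90514435-90524581, plus), S100a4 (chr3:90603771-90606045, plus), S100a6 (chr3:90612882-90614414, plus), S100a8 (chr3:90668978-90670035, plus) and S100a9 (chr3:90692632-90695721, minus). S100a11 (chr3:93520488-93526287, plus) and S100a10 (chr3:93555080-93564643, plus) form a pair 2.82 Mb further along. S100a8 and S100a9 are 22.6 kb apart with no other listed gene between them. S100a1 and S100a13 point away from each other with 42 bases between them. For S100a4, 302 of 498 exonic bases are shared with the same-strand gene model Gm42674, which has a count of 0, and reads in the shared exons may not have been assigned to either gene. The span of S100a6 differs from the GENCODE vM21 model of the same build, in which the gene ends at 90624181, while the other 7 genes have the vM21 start, end and strand.

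The promoters of the 2 calprotectin genes and the 42-base gap between S100a1 and S100a13 are shown because the former carried the largest differences below and the latter joins the 2 genes that stood apart from them. Sequences are from RefSeq on GRCm38.p6, the assembly behind mm10, written 5′ to 3′ on the strand of the gene (plus strand for the gap). S100a8 is shown from chr3:90668821-90668977, which ends at the last base before the first exon in the count file, and S100a9 from chr3:90695702-90695971, from 250 bases before to 20 bases after its RefSeq start. Capitals mark motif matches in these promoters. The gap is chr3:90514373-90514454, with the bases between the genes in capitals.
S100a8: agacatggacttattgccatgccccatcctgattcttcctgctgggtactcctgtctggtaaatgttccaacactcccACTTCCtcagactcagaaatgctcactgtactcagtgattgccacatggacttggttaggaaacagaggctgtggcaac
S100a9: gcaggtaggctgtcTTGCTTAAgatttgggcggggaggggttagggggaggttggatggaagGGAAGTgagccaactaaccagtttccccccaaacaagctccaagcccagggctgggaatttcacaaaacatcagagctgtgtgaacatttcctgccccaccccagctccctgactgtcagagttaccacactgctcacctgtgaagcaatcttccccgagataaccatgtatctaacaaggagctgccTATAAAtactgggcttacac
S100a1-S100a13 gap: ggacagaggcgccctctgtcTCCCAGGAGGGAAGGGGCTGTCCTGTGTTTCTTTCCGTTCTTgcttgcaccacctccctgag

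A window of 250 bases before to 50 after the RefSeq start was on hand for 7 of the 8 genes, S100a10 being the exception, and was searched on both strands for 5 motifs. GGAAGT, the core bound by the myeloid factor PU.1 (Spi1), was found in 6 of 7 windows (all but S100a6), against 23.8% of 32851 promoters of the same length. The S100a1 and S100a13 windows overlap by 204 bases and share a single match, so these 6 windows hold 5 sites. TTGCNNAA, a half-site pair of C/EBP factors, was found in 1 window, that of S100a9, against 10.8% of all promoters. TATAAA was found in 3 windows (S100a4, S100a8 and S100a9) against 13.6%. It starts 30 bases before the RefSeq start of S100a8, within the first exon of the count file and thus past the end of the printed stretch, 31 bases before that of S100a4 and at the annotated start itself in S100a9. TGANTCA, bound by AP-1, had 2 matches in S100a11 and none in the other windows (7.81% of promoters), and TTCNNNGAA, bound by STAT factors, had none (8.3%). No 2 of these motifs overlapped in the printed stretches. A match describes letters only.

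The experiments differed far more than the groups in calprotectin RNA. S100a8 was at 78.7, 333 and 0.434 CPM in experiments 1, 2 and 3 with the empty vector, and at 89.6, 306 and 0 CPM with the fusion and control shRNA. With shNizp1#1 it was at 37.8, 118 and 0.139 CPM, and with shNizp1#2 at 71.8, 252 and 0 CPM. Experiment 2 was thus highest and experiment 3 close to nothing in every group. S100a9 followed the same order, at 111, 563 and 0 CPM with the empty vector and 137, 453 and 0.785 CPM with the fusion. It was at 52.8, 232 and 0.278 CPM with shNizp1#1 and at 98.5, 403 and 0.44 CPM with shNizp1#2. Over the 4 libraries of experiment 3 together, S100a8 had 3 counts (0.126 CPM, exact 95% Poisson interval 0.0261 to 0.37) and S100a9 had 9 counts (0.379 CPM, 0.174 to 0.72). The pooled level in experiments 1 and 2 was 1280 times as high for S100a8 (exact 95% binomial interval 439 to 6220) and 672 times as high for S100a9 (354 to 1470). All these intervals were computed on counts summed over libraries, so they cover counting error only and leave out the spread between libraries. The reads also carry no molecular identifiers.

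**Figure D1:**
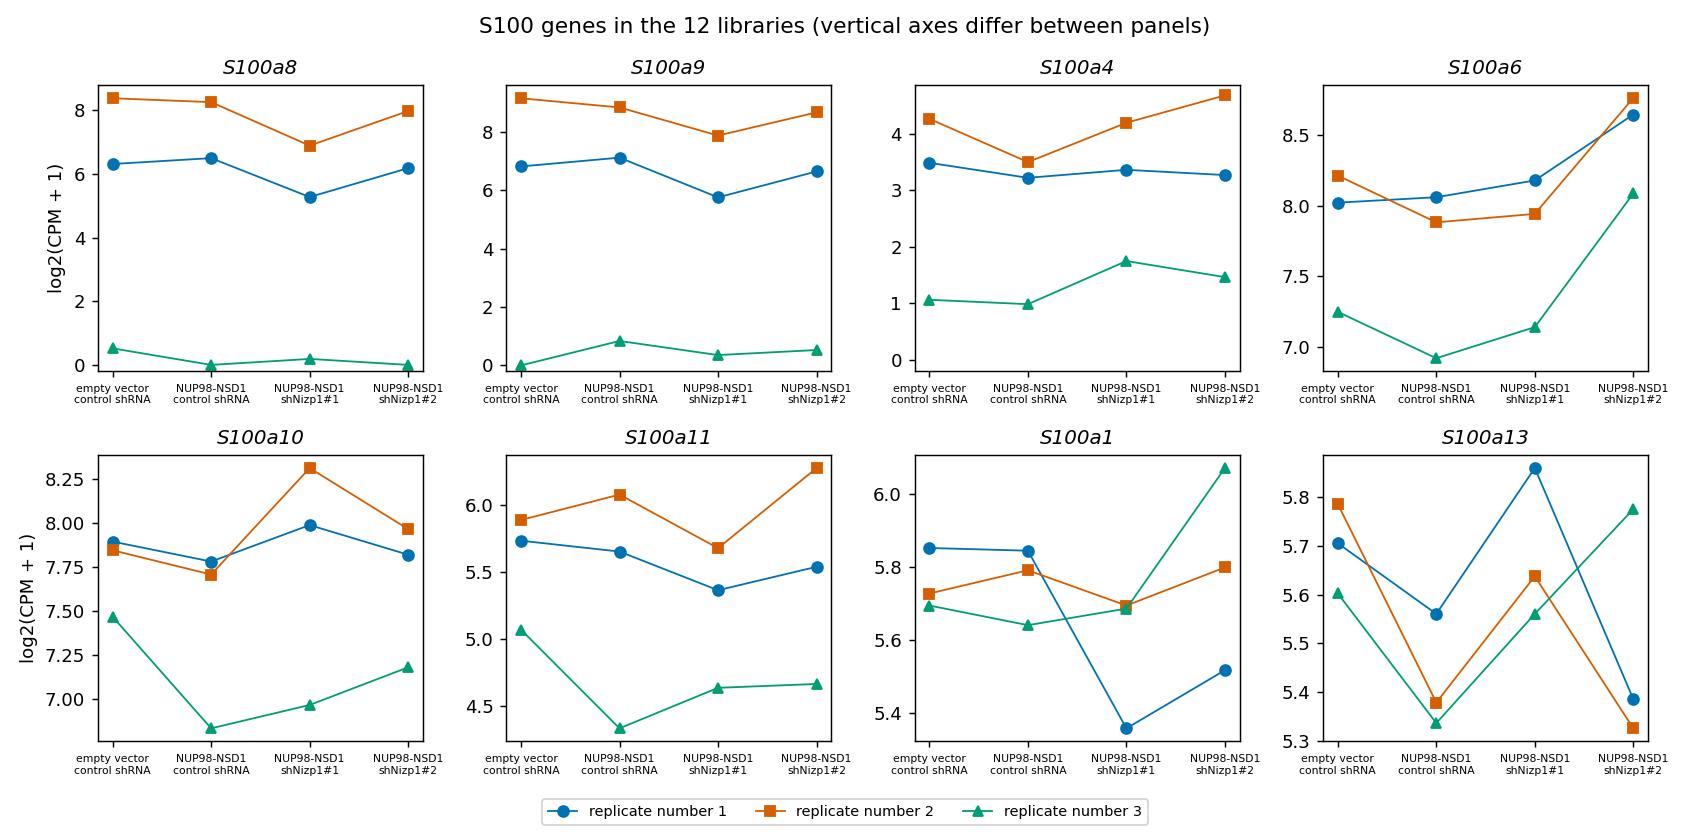
Level of each S100 gene as log2(CPM + 1) on the vertical axis (scales differ between panels) in the 4 groups on the horizontal axis, 1 point per library and 1 coloured line per replicate number. The line of experiment 3 lies near 0 for S100a8 and S100a9 (at most 0.785 CPM) and lowest in every group for S100a4, S100a6, S100a10 and S100a11, while the lines of S100a1 and S100a13 cross.

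The low level in experiment 3 extended to 4 further family members, but to a smaller degree. S100a4 was at 10.2, 18.2 and 1.09 CPM with the empty vector and 8.32, 10.3 and 0.981 CPM with the fusion. It reached 9.28, 17.3 and 2.36 CPM with shNizp1#1 and 8.64, 24.6 and 1.76 CPM with shNizp1#2. Its highest value in experiment 3 lay below its lowest in the other experiments. For S100a10, the annexin A2 partner, experiment 3 gave 113 to 176 CPM and the others 208 to 317 CPM, without overlap. For S100a11, which binds annexin A1, the corresponding ranges were 19.2 to 32.6 CPM and 40.2 to 76.4 CPM, again without overlap. S100a6 had 120 to 271 CPM in experiment 3 and 235 to 434 CPM elsewhere, ranges that did overlap, through its shNizp1#2 library.

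S100a1 and S100a13 showed no such step. S100a1 lay between 40 and 56.8 CPM in experiment 1, between 50.8 and 54.7 CPM in experiment 2 and between 48.9 and 66.3 CPM in experiment 3. S100a13 lay between 40.8 and 57.1, 39.1 and 54.2, and 39.4 and 53.8 CPM. All 3 experiments overlapped for both genes. With the replicate number as a term in edgeR's quasi-likelihood model, 6 of the 8 genes were called (adjusted p under 0.05 with Benjamini-Hochberg adjustment over all tested genes), in a data set where 53.5% of tested genes were. Adjusted p was 4.21e-12 for S100a8, 1.31e-11 for S100a9, 1.33e-06 for S100a4, 1.15e-05 for S100a6, 2.58e-05 for S100a11 and 0.00029 for S100a10. It was 0.589 for S100a1 and 0.768 for S100a13. The same 6 genes were called under each of the 18 alternative settings tried.

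**Figure D2:**
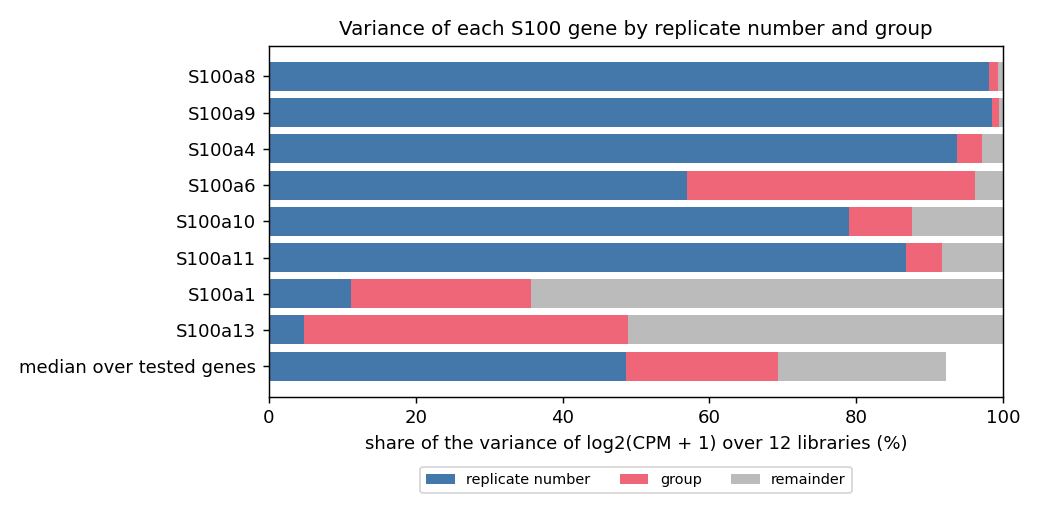
Share of the variance of log2(CPM + 1) over the 12 libraries (horizontal axis, percent) that went with the replicate number, the group and the remainder, for each S100 gene and as medians over all tested genes (3 separate medians, which need not sum to 100). The replicate number took 98.1% for S100a8 and 98.5% for S100a9, against 11.2% for S100a1 and 4.78% for S100a13.

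Split in this way, the replicate number went with 93.7% of the variance of S100a4, 86.8% of S100a11 and 79% of S100a10. S100a6 was the member with a large share on both sides, 56.9% with the replicate number and 39.3% with the group. For S100a13 the group held 44.1% and the remainder 51.2%, and for S100a1 24.5% and 64.3%. Neither gene was called in any comparison of groups below. The median over tested genes was 48.7% for the replicate number and 20.6% for the group.

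Markers of maturing neutrophils moved with the experiments in the same order. A list of 14 such genes (Camp, Ngp, Ltf, Lcn2, Mmp8, Mmp9, Cd177, Ly6g, Cxcr2, Retnlg, Wfdc21, Pglyrp1, Csf3r and Itgb2l) summed to between 128 and 255 CPM in experiment 1, to between 560 and 1090 CPM in experiment 2 and to between 2.39 and 11.1 CPM in experiment 3. Between 9 and 12 of the 14 genes had no count in each library of experiment 3, and none was at 0 elsewhere. Of 5 primary granule genes of the earlier promyelocyte stage, 4 were also lowest in experiment 3 without overlap: Mpo (at most 4.7 CPM, against 41.4 or more elsewhere), Elane (at most 0.293 against 5.23 or more), Prtn3 (at most 2.79 against 14.7 or more) and Ms4a3 (at most 4.31 against 9.53 or more). Ctsg alone of the 5 was highest there, at 461 to 982 CPM against 134 to 295 CPM. The 12 monocyte and macrophage genes summed to between 1140 and 1850, 2340 and 3990, and 319 and 1330 CPM. In bulk RNA, fewer cells of a type and less RNA per cell cannot be told apart, and the part of these cell types in the S100 values was not tested.

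**Figure D3:**
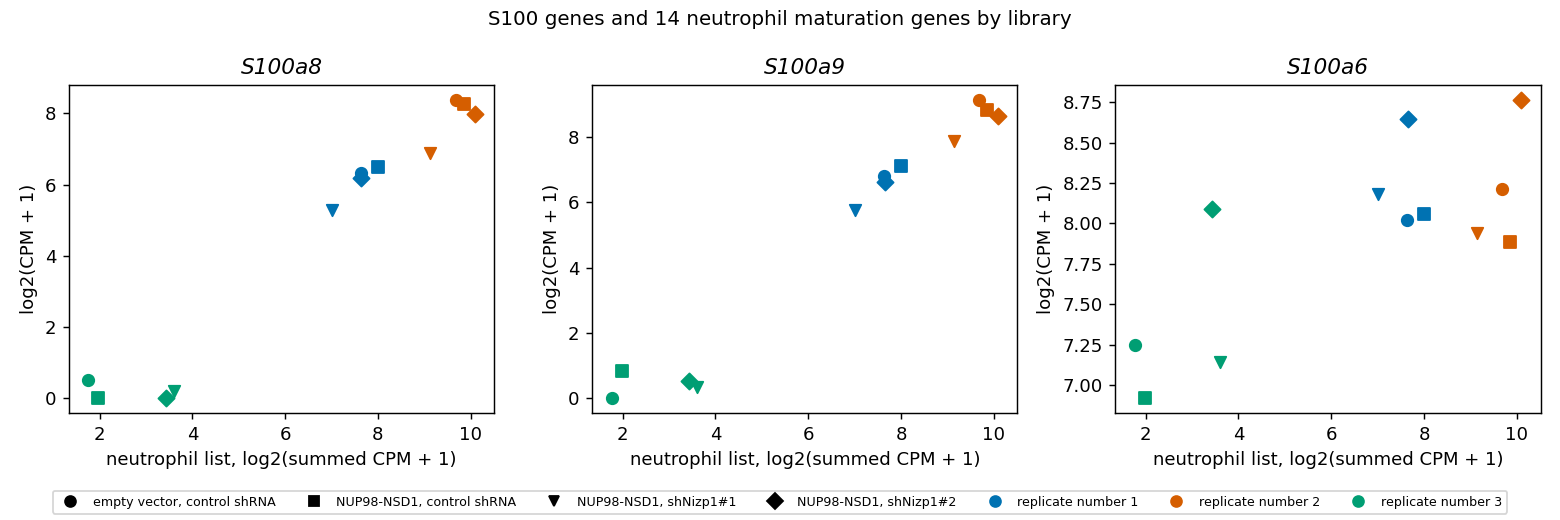
Levels of S100a8, S100a9 and S100a6 as log2(CPM + 1) on the vertical axes against the summed CPM of the 14 neutrophil genes as log2(CPM + 1) on the horizontal axes, 1 point per library, with shapes for groups and colours for replicate numbers. S100a8 and S100a9 fall into 3 clusters by replicate number along the horizontal axis, and the shNizp1#1 library is the lowest of its experiment for both genes in experiments 1 and 2, while S100a6 is highest with shNizp1#2 in each experiment.

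Because of this step the family had no single order of abundance. In CPM per kilobase of exon, experiment 1 ran S100a6 (mean 375), S100a10 (291), S100a9 (192), S100a8 (143), S100a11 (91.5), S100a1 (71.4), S100a13 (68.3) and S100a4 (18.3). In experiment 2 S100a9 led at a mean level of 790 and S100a8 came next at 519, ahead of S100a6 at 374 and S100a10 at 312. The remaining order was as in experiment 1. Experiment 3 again had S100a6 (211) and S100a10 (174) on top, followed by S100a1 (78), S100a13 (65.4), S100a11 (48.9) and S100a4 (3.11), with S100a9 (0.719) and S100a8 (0.295) last. Some neighbours in these orders did not keep their places in every library: S100a8 was above S100a6 in 2 of 4 libraries of experiment 2, S100a8 above S100a11 in 3 of 4 of experiment 1, and S100a1 above S100a13 in 3 of 4 of experiments 1 and 2 each. S100a6 was above S100a10 in 3 of 4 libraries of experiments 2 and 3 each, and S100a9 above S100a8 in 3 of 4 of experiment 3. The place of S100a4 is also uncertain, as its length includes the exonic bases shared with Gm42674, whose reads may not have been assigned. S100a9 counts exceeded S100a8 counts between 1.37 and 1.97 times in the 8 libraries of experiments 1 and 2. Together the 8 genes made up between 0.0353% and 0.157% of all counts, and S100a8 plus S100a9 between 11.6% and 55.9% of the family's counts in experiments 1 and 2, against at most 0.229% in experiment 3.

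The first comparison of the design is NUP98-NSD1 against the empty vector, both with the control shRNA. None of the 8 genes passed the test. Mean levels with the empty vector and the fusion were 137 ± 174 and 132 ± 157 CPM for S100a8, 225 ± 298 and 197 ± 232 CPM for S100a9, and 235 ± 75 and 207 ± 77.1 CPM for S100a6 (SD, n = 3 each). In the model without a block, which takes the spread between experiments as error, 0 of 8 genes were called by edgeR (0.00834% of tested genes were), and 0 of 8 had an unadjusted p under 0.05 (2.67% of tested genes had). With the replicate number as a block, 0 of 8 were called (0.275% of tested genes) and 0 of 8 had an unadjusted p under 0.05 (11% of tested genes), with adjusted p between 0.458 and 0.998. DESeq2 and limma-voom called none either, with or without the block. The blocked log2 difference was 0.00 for S100a8 (SE 0.146, an interval of 2 SE running from -0.291 to 0.293) and 0.01 for S100a9 (SE 0.158, from -0.301 to 0.33). S100a4, S100a10 and S100a13 were lower in all 3 same-numbered pairs, a pattern shared by 16.3% of tested genes. S100a13 was at 51.2, 54.2 and 47.6 CPM with the empty vector and at 46.2, 40.6 and 39.4 CPM with the fusion, so that its groups did not overlap (3.74% of tested genes lay lower without overlap), with a blocked log2 difference of -0.28 (SE 0.14, adjusted p = 0.487). The median blocked difference over the 8 genes was -0.191, beside -0.000938 over all tested genes.

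The question put to the shRNAs is what lowering Nizp1 does in fusion-bearing cells. With shNizp1#1, S100a8 and S100a9 fell, and the fall was seen in both experiments that expressed them. In experiment 1 S100a8 went from 89.6 to 37.8 CPM, and in experiment 2 from 306 to 118 CPM, log2(CPM + 1) differences of -1.22 and -1.37. In experiment 3 it had no count in the control library and 0.139 CPM with the shRNA. S100a9 went from 137 to 52.8 CPM, from 453 to 232 CPM and from 0.785 to 0.278 CPM. Without the block, 0 of 8 genes were called by edgeR (0% of tested genes), 0 of 8 had an unadjusted p under 0.05 (4% of tested genes), and DESeq2 and limma-voom called none. In the blocked edgeR fit, 2 of 8 genes were called, both lower, where 1.12% of tested genes were called lower and 1.63% in either direction. S100a8 fell by 1.31 on the log2 scale (SE 0.158, adjusted p = 0.00162, a ratio of 0.405) and S100a9 by 1.18 (SE 0.166, adjusted p = 0.00425, a ratio of 0.443). The S100a8 call was lost in the blocked DESeq2 fit (log2 -1.21, adjusted p = 0.264), and the S100a9 call without the fusion control library of experiment 1 (log2 -0.98, edgeR adjusted p = 0.0534). Both calls stood without the 4 libraries of experiment 3.

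The neutrophil list went the same way in this comparison. In the blocked fit 13 of its 14 genes lay below 0, Mmp8 being the exception, and the median log2 difference was -1.22, beside -0.00401 over all tested genes. Camp, Ngp, Ltf and Pglyrp1, all granule proteins of maturing neutrophils, were called lower, with log2 differences of -1.72, -1.55, -1.51 and -1.55. Summed, the list was at 255, 924 and 2.94 CPM with the control shRNA and at 128, 560 and 11.1 CPM with shNizp1#1. Of 4 tested eosinophil genes, Epx and Prg2, both granule proteins, were called lower too (log2 -3.35 and -2.56). Siglecf (-0.62) was not called, nor was Il5ra, which went the other way (0.66). In this fit 1.12% of tested genes were called lower. The eosinophil list, 5 genes in all, summed to 16.6, 71.4 and 5.69 CPM with the control and to 12.4, 17.6 and 5.55 CPM with shNizp1#1. None of the monocyte genes was called. The part of these cells in the S100a8 and S100a9 differences was not tested.

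The other 6 genes were not called with shNizp1#1. Unadjusted p was under 0.05 for 3 of 8 genes (12.3% of tested genes), the third being S100a10, at 253, 317 and 124 CPM against 219, 208 and 113 CPM with the control (blocked log2 difference 0.33, SE 0.141, adjusted p = 0.359). S100a4, S100a6, S100a10 and S100a13 were higher in all 3 pairs (17.2% of tested genes were) and S100a9 was lower in all 3 (18.1%). The S100a9 pair of experiment 3 held only 2 counts with the shRNA against 4 with the control. S100a13, at 57.1, 48.8 and 46.2 CPM, touched none of its control values (higher without overlap, 3.96% of tested genes), with a difference of 0.26 (SE 0.14, adjusted p = 0.486).

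With shNizp1#2 the gene called was S100a6, which encodes calcyclin. It was higher in every experiment, at 400, 434 and 271 CPM against 266, 235 and 120 CPM with the control shRNA. The groups did not overlap (3.48% of tested genes lay higher without overlap), and the difference was 0.585, 0.878 and 1.17 on the log2(CPM + 1) scale in experiments 1, 2 and 3. Without the block 0 of 8 genes were called (0.00834% of tested genes), and S100a6 alone had an unadjusted p under 0.05 (0.0448 from edgeR's quasi-likelihood test, adjusted p = 1, where 2.38% of tested genes had one). DESeq2 and limma-voom without the block called none. In the blocked edgeR fit 1 of 8 genes was called, where 0.142% of tested genes were called higher and 0.217% in either direction, and 2 of 8 had an unadjusted p under 0.05 (11.1% of tested genes). S100a6 rose by 0.88 on the log2 scale (SE 0.11, adjusted p = 0.00348), a ratio of 1.84. Its call was lost without the fusion control library of experiment 3 (log2 0.80, adjusted p = 0.0634) and without all 4 libraries of experiment 3 (log2 0.74, adjusted p = 0.234). In the same fit the neutrophil list had 7 genes above and 7 below 0 and a median of -0.0877, and no gene of the 10 cell type lists was called (4 neutrophil, 4 dendritic cell and 3 mast cell genes had an unadjusted p under 0.05).

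Calprotectin RNA was not called with shNizp1#2. The blocked log2 difference was -0.30 for S100a8 (SE 0.148, adjusted p = 0.48) and -0.33 for S100a9 (SE 0.16, adjusted p = 0.467). S100a9 was lower in all 3 pairs (19.1% of tested genes were), though its pair of experiment 3 held only 3 counts against 4 with the control. S100a8 was lower in experiments 1 and 2 and without a count on either side in experiment 3. S100a4, S100a6 and S100a10 were higher in all 3 pairs, as were 20% of tested genes. S100a4, at 8.64, 24.6 and 1.76 CPM against 8.32, 10.3 and 0.981 CPM, had a difference of 0.73 (SE 0.281, adjusted p = 0.344). S100a11, at 45.5, 76.4 and 24.4 CPM, and S100a1, at 44.8, 54.7 and 66.3 CPM, overlapped their controls, with differences of 0.12 (SE 0.159) and 0.05 (SE 0.138).

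**Figure D4:**
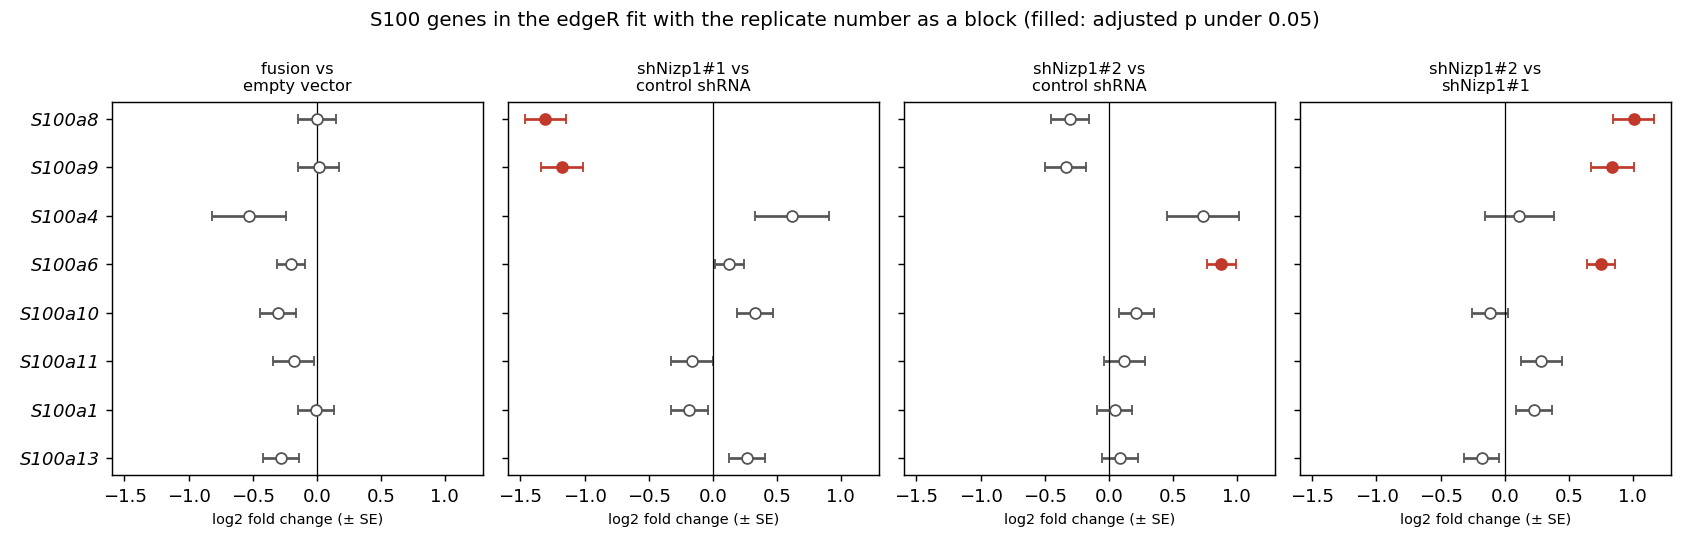
Log2 fold change with its standard error (horizontal axes) of each S100 gene in the 4 comparisons from the edgeR fit blocked on replicate number; filled points have an adjusted p under 0.05. No gene is filled for the fusion, S100a8 and S100a9 are filled below 0 for shNizp1#1, S100a6 above 0 for shNizp1#2, and all 3 above 0 when shNizp1#2 is set against shNizp1#1.

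Set directly against each other, the shRNAs differed in 3 of the 8 genes. In the blocked edgeR fit S100a6, S100a8 and S100a9 were called higher with shNizp1#2 than with shNizp1#1, where 1.78% of tested genes were called higher and 2.37% in either direction. The difference was 0.75 for S100a6 (SE 0.109, adjusted p = 0.00304), 1.01 for S100a8 (SE 0.157, adjusted p = 0.00387) and 0.84 for S100a9 (SE 0.165, adjusted p = 0.0172). Pair by pair, S100a6 was higher with shNizp1#2 by 0.469, 0.819 and 0.946 on the log2(CPM + 1) scale, and S100a8 by 0.906 and 1.09 in experiments 1 and 2. These were also the 3 genes of 8 with an unadjusted p under 0.05 (14.8% of tested genes). Without the block edgeR, DESeq2 and limma-voom called 0 of 8 (edgeR 0.00834% of tested genes), and edgeR gave 0 of 8 an unadjusted p under 0.05 (5.08%). S100a1, S100a6, S100a9 and S100a11 were higher in all 3 pairs, as were 22.2% of tested genes, and no gene's groups were apart without overlap. The S100a9 pair of experiment 3 held only 3 counts against 2. The neutrophil list lay above 0 in 14 of 14 genes with a median of 1.09, and Camp, Ngp and Lcn2 were called higher, as were 1 eosinophil and 1 dendritic cell gene. The part of these cells in the S100a8 and S100a9 differences was not tested. Without experiment 3 the S100a6 and S100a9 calls were lost (adjusted p = 0.0985 and 0.0596), with log2 differences of 0.65 and 0.85. The S100a8 call was lost in DESeq2 (log2 0.91, adjusted p = 0.432) and without the experiment 2 library of shNizp1#1 (log2 0.86, edgeR adjusted p = 0.0714) or shNizp1#2 (log2 1.00, adjusted p = 0.0554). The S100a9 call was lost in 5 of the 6 fits that left out 1 library (log2 0.78 to 0.89, adjusted p up to 0.153), all but the one without the shNizp1#1 library of experiment 3.

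Genes of the proteins that S100 proteins bind or signal through showed no called change in RNA. Of 18 listed partners, receptors and cargo genes, 16 were tested and 0 were called by edgeR in any comparison, with or without the block. In the blocked fits 0.275% of all tested genes were called with the fusion, 1.63% with shNizp1#1, 0.217% with shNizp1#2 and 2.37% between the shRNAs. Without the block the share was at most 0.00834%. At such shares a count of 0 among 16 genes says little about them. Unadjusted p was under 0.05 in the blocked fit for 5 of them with the fusion, 2 with shNizp1#1, 4 with shNizp1#2 and 2 between the shRNAs, where 11%, 12.3%, 11.1% and 14.8% of all tested genes had such a p. Their median blocked log2 difference was -0.0591 with the fusion, 0.0228 with shNizp1#1, 0.181 with shNizp1#2 and 0.149 between the shRNAs, each beside a median over all tested genes within 0.00401 of 0. With shNizp1#2, 13 of the 16 lay above 0. Myh9, the non-muscle myosin heavy chain bound by S100a4, was the most abundant (mean 747 CPM) and differed by 0.25 with shNizp1#2 (SE 0.0898, adjusted p = 0.315). Bsg, a surface receptor for S100a9, came next (444 CPM) and differed by -0.03 (SE 0.0917, adjusted p = 0.942).

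Among the listed receptors, Ager (RAGE) was scarce, between 1.18 and 6.52 CPM in the 12 libraries. Anxa2, the annexin that binds S100a10, repeated the step of experiment 3: it ranged from 4.71 to 22.6 CPM there and from 60.2 to 212 CPM in the other experiments. The S100a13 cargo gene Fgf1 and the vesicle protein gene Syt1 did not pass the filter on low counts. Of 7 transcription factors of the myeloid lineage (Cebpa, Cebpb, Cebpd, Cebpe, Spi1, Stat3 and Gfi1), all were tested and 0 were called by edgeR in any comparison, with at most 2 of 7 at an unadjusted p under 0.05 in the blocked fits (the shares of all tested genes are those given above). Their median blocked difference with shNizp1#1 was -0.191, and the most abundant, Stat3 (159 CPM) and Spi1 (114 CPM), differed by -0.19 (SE 0.126, adjusted p = 0.603) and -0.12 (SE 0.119, adjusted p = 0.759). Cebpe, a factor of late granulocyte genes, had at most 0.217 CPM in experiment 3 and between 1.19 and 12.7 CPM elsewhere.

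Within experiments, the members did not form a single pattern. Likeness was measured as Pearson's r over the 12 libraries, on log2(CPM + 1) minus the mean of the 4 libraries of the same experiment; these points share libraries and depth, and the values are a description. S100a8 and S100a9 had an r of 0.763, the highest among the 28 pairs of members, followed by S100a8 and S100a11 with 0.651. S100a9 and S100a10 had the lowest, -0.754. Among 9776 genes with a mean of at least 5 CPM, S100a9 had only rank 211 in likeness to S100a8. The 4 points of experiment 3 rest on 3 counts of S100a8 and 9 of S100a9 in all. S100a1 and S100a13, whose RefSeq starts lie 105 bases apart, had an r of 0.0867, and the neighbours S100a4 and S100a6 had 0.485.

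Over 9776 genes with a mean of at least 5 CPM, the genes most like S100a8 were Mphosph6 (r = 0.975), Stfa2 (0.955) and Tubgcp4 (0.945), and those most like S100a9 were Atp6ap1 (0.953), Atp6v1d (0.943) and Kif5b (0.935). S100a6 was closest to Emilin2 (0.959), Ptgir (0.905) and Slc6a19 (0.888). By Spearman's rho Emilin2 kept rank 1 for S100a6, but Ptgir had rank 266 and Slc6a19 rank 679, and Stfa2 had rank 73 for S100a8. Among the genes close to S100a11 were Pgam5 (0.935) and Capg (0.928), and S100a10 was closest to Grk5 (0.939), Slc39a4 (0.923) and Zfp606 (0.921). S100a1 was closest to Chic2 (0.935), Actr5 (0.923) and Armc8 (0.891). The lowest leading values were those of S100a4, with Dgki (0.903), Gosr1 (0.828) and Isca1 (0.826), and of S100a13, with Chmp6 (0.899), Sdr42e1 (0.895) and Ccar2 (0.868). No gene stood among the top 3 of more than 1 member.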

How the data were processed

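RNA of 12 libraries (4 groups of 3) was sequenced with a stranded poly(A) kit as single 75 nt reads, per the labels' protocols. The authors deposited raw counts per gene. The submitters' processing notes name Trimmomatic 0.32, STAR 2.5.3a, featureCounts and mm10, without a strand setting or annotation release, so antisense reads may not have been told apart. All 12 count columns were used.

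Cell type lists (neutrophil, promyelocyte, monocyte, mast cell, eosinophil, stromal, lymphocyte and others) served as checks. The main test was edgeR 4.0.16 (R 4.3.3): filterByExpr on the groups (11994 genes tested), TMM scaling and the robust quasi-likelihood test over all libraries, with adjusted p under 0.05 called. The labels number replicates 1 to 3 in each group. The numbers pair the libraries (18 same-numbered pairs, lowest r 0.22, median 0.74; 12 of 12 libraries correlate best with their own number), decided from these correlations, so an additive block on replicate number was fitted beside it. SEs come from the F statistic. CPM use TMM-scaled totals. Levels per kilobase use the exon length in the file. Log2 levels have 1 CPM added. No animals are named, so the p-values cover library-to-library spread, which may be technical. The script was tested on simulated data. All replicate pairs differed beyond sampling noise.

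Alternatives were RLE and upper-quartile scaling, no or a stricter filter, DESeq2 1.42.0, limma-voom (limma 3.58.1), the 2 groups alone, each library left out, and no experiment 3. The members were given by symbol; they and the lists were chosen with earlier results of these data known. Named beside them were Zkscan17, low-count S100 genes by totals, the 3 genes most like each member (1 of those for S100a11 is not reported here), called list members or else the 2 most abundant, plus Ager, Anxa2, Cebpe, the primary granule genes, Epx, Prg2, Mmp8, Kit and Ly6a, chosen after their values were seen.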

Additional observations from a re-analysis of the deposited data

Results flagged for a closer look

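In the edgeR fit blocked on replicate number, the direct contrast between the 2 shRNAs against Nizp1 called 3 S100 genes. Without the block none of them was called. The S100a6 and S100a9 calls were lost without experiment 3 (edgeR adjusted p = 0.0985 and 0.0596), and the S100a8 call in blocked DESeq2 (adjusted p = 0.432). Of the 6 blocked fits that left out 1 library, 1 kept the S100a9 call. S100a6 was higher with shNizp1#2 than with shNizp1#1 by 0.75 on the log2 scale (adjusted p = 0.00304), S100a8 by 1.01 (adjusted p = 0.00387) and S100a9 by 0.84 (adjusted p = 0.0172). S100a6 was higher in 3 of 3 same-numbered pairs, S100a9 in 3 of 3 and S100a8 in 2 of 3. For S100a9 and S100a8 the pair of experiment 3 carries no information on direction. It held 3 counts against 2 for S100a9 and 0 against 1 for S100a8. Zkscan17, the targeted gene, was at 30.5 ± 4.37 CPM with shNizp1#1 and 24.5 ± 6.08 CPM with shNizp1#2 (SD, n = 3). Groups of 3 libraries are too small for a check of single outlying samples.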

How the results depend on the processing

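Without the block, 0 of 8 S100 genes were called in each comparison under every alternative run. With the replicate block, 0 were called with the fusion throughout. For shNizp1#1 the blocked count was 2 in edgeR with TMM, RLE or upper-quartile scaling, with no or a stricter filter, in limma-voom and without experiment 3, and 1 in DESeq2; leaving out 1 library gave 1 to 2. For shNizp1#2 it was 1 in the edgeR, limma-voom and DESeq2 fits with all libraries, 0 without experiment 3, and 0 to 1 when leaving out 1 library. Between the shRNAs it was 3 in the edgeR and limma-voom fits with all libraries, 2 in DESeq2, 1 without experiment 3, and 1 to 3 when leaving out 1 library. Leaving out libraries also means fewer samples, and the cause of the losses was not tested for any of these alternatives. The called genes kept their sign in all 14 blocked alternatives of their comparison. Over all genes, the unblocked edgeR fit called 1, 0, 1 and 1 genes (fusion, shNizp1#1, shNizp1#2, between the shRNAs) and the blocked fit 33, 195, 26 and 284. Genes called higher and lower were 8 and 0, 5 and 34, 2 and 5, and 62 and 15 in DESeq2 without the block, 60 and 16, 71 and 170, 41 and 29, and 262 and 97 in blocked DESeq2, 280 and 171, 222 and 290, 256 and 113, and 437 and 189 in the blocked edgeR fit with no filter, and 2 and 0, 2 and 9, 0 and 4, and 10 and 2 in the blocked fit without experiment 3. Among values that were not called, 83 changed sign in an alternative. By Spearman's rho, 14 of the 24 likest genes fell out of the top 3. S100a8 and S100a9 had only 3 and 9 counts in experiment 3, too few to compare groups there. Its libraries held between 4468392 and 6842589 counts, and the shallowest library of all (3586538) was in experiment 2.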
